A study of Mus musculus with 9 samples.

Results

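*Pisd* and the pseudogenes *Pisd-ps1* and *Pisd-ps2* were 3 of the 689 genes in the RNA-seq table of mouse hemibrains. They were taken by symbol. The family was chosen by its measured RPKM, which were higher in aged control than in young control brains in these same libraries, so that difference is given here as a description and was not tested. The libraries came from male C57BL/6J mice, 3 per group. Young controls were 5 months old by the sample labels (the study's methods give a somewhat younger age) and received control diet for 6 weeks. Aged controls were 24 months old and received the same 6 weeks of control diet. Aged-repopulated mice, also 24 months old, received PLX5622 for 2 weeks and then control diet for 4 weeks. PLX5622 blocks CSF1R, a receptor that microglia need to survive, and new microglia fill the brain after it is withdrawn. JAX supplied the young mice and NIA both aged groups, so that age and supplier cannot be told apart in any comparison with the young group. Total RNA was taken from 1 frozen hemibrain per mouse, without sorting of cells, so more or fewer cells of a type and more or less RNA per cell cannot be told apart.

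*Pisd* encodes phosphatidylserine decarboxylase, an enzyme of the inner mitochondrial membrane. It turns phosphatidylserine, which is brought in from other membranes, into phosphatidylethanolamine, a lipid on which the shape of the inner membrane and the respiratory complexes depend. A pseudogene is a copy of a gene that no longer encodes the full protein. An unprocessed pseudogene arose by duplication of DNA and keeps the exons and introns of its parent, and a transcribed one is still copied into RNA.

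In GENCODE M21, on the mouse build GRCm38 (mm10), *Pisd* lies on the minus strand at chr5:32736301-32785646. Its main model has 8 exons, 2183 bases and 1218 coding bases, of 14 annotated transcripts. *Pisd-ps1* lies on the plus strand at chr11:3125904-3131004, with 7 exons and a model of 1115 bases. *Pisd-ps2* lies on the minus strand at chr17:3076578-3084183, with 7 exons and a model of 1175 bases. Both are annotated as transcribed unprocessed pseudogenes, and they were the only 2 rows of the table with a pseudogene annotation, beside 671 protein-coding genes. Exons 4 to 8 of *Pisd* correspond to exons 3 to 7 of each pseudogene. They were compared from the start of exon 4 to the end of the coding part of *Pisd*, which takes in 225 of the 1154 bases of exon 8. Over this part *Pisd* and *Pisd-ps1* were 94.19% identical (52 mismatches in 895 aligned bases), *Pisd* and *Pisd-ps2* 95.92% (36 in 882), and the pseudogenes 95.01% to each other (44 in 881).

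The following stretches are shown because a short read from a part that is the same in 2 genes cannot be told apart. They give the longest run alike in all 3 and, within the limits stated below, the 60-base window with the most differences. By whole exons, the compared part of exon 8 of *Pisd* was least alike. It was 90.0% identical to *Pisd-ps1* with 14 bases missing there, and 94.1% to *Pisd-ps2* with 20 missing. The longest run that is the same in all 3 spans 81 bases, within exon 4 of *Pisd* at chr5:32739208-32739288 (minus strand) and within exon 3 of the pseudogenes at chr11:3129014-3129094 (plus) and chr17:3079426-3079506 (minus). All sequences are from the GENCODE transcripts, 5′ to 3′.
All 3 genes: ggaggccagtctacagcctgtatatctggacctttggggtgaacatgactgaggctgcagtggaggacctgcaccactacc
Windows of 60 bases were compared only within 1 exon, without gaps and up to the end of the coding part. The window with the most differences begins at the last base of that run and runs on in the same exon. Capitals mark its 9 positions at which the genes are not all alike, at chr5:32739149-32739208, chr11:3129094-3129153 and chr17:3079367-3079426.
Pisd: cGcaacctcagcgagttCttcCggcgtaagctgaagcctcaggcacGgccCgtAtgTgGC
Pisd-ps1: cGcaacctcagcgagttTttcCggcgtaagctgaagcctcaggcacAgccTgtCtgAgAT
Pisd-ps2: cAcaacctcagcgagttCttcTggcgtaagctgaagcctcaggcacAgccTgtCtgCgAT

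The pseudogenes also carry changes that end the reading frame of the enzyme. When the frame of *Pisd* was carried into *Pisd-ps1* from the first shared exon, a stop codon followed after 73 codons, in exon 3. In *Pisd-ps2* it followed after 146 codons, in exon 5, where *Pisd* has 302 codons from the same point to the end of its protein. Exon 6 of *Pisd-ps2* further lacks 7 bases, a number that shifts the frame. Capitals mark those bases in exon 7 of *Pisd* (chr5:32738052-32738108) and exon 6 of *Pisd-ps1* (chr11:3130191-3130247), and the *Pisd-ps2* sequence (chr17:3077359-3077408) has none of them.
Pisd: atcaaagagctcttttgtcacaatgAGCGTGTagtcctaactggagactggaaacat
Pisd-ps1: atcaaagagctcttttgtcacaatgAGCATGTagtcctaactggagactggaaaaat
Pisd-ps2: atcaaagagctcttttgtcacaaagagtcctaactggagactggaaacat

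How much of each transcript could give a read that also belongs to another member was counted in stretches of 50 bases, since the length of the reads is not given in the sources used here. Of the stretches of *Pisd*, 12.5% occurred unchanged in a transcript of *Pisd-ps1* or *Pisd-ps2*. The share was 15.5% for *Pisd-ps1* and 22.3% for *Pisd-ps2*. These shares depend on the length chosen, and for *Pisd-ps1* they ran from 25.9% at 36 bases to 0.0% at 100. When up to 2 mismatches were allowed, a setting chosen after the data were seen, the shares were 30.6%, 77.5% and 72.0%. In *Pisd* the bases in identical stretches lay in exons 4 to 7 only, with 163, 131, 116 and 151 bases. Exon 8 of *Pisd*, 1154 bases long and mostly beyond the coding part, held none. *Pisd* also shared 52.2% of its stretches with *Gm20671*, an annotated protein-coding gene that overlaps it on the same strand (chr5:32737230-32827109) and is not in the table. How reads that match several genes were counted is not given in the sources used here, so a read from one member may have been counted for another, and its part in the values below was not tested. A further copy, *Pisd-ps3*, has no chromosome in RefSeq, is not in the table and was not used here.

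**Figure D1:**
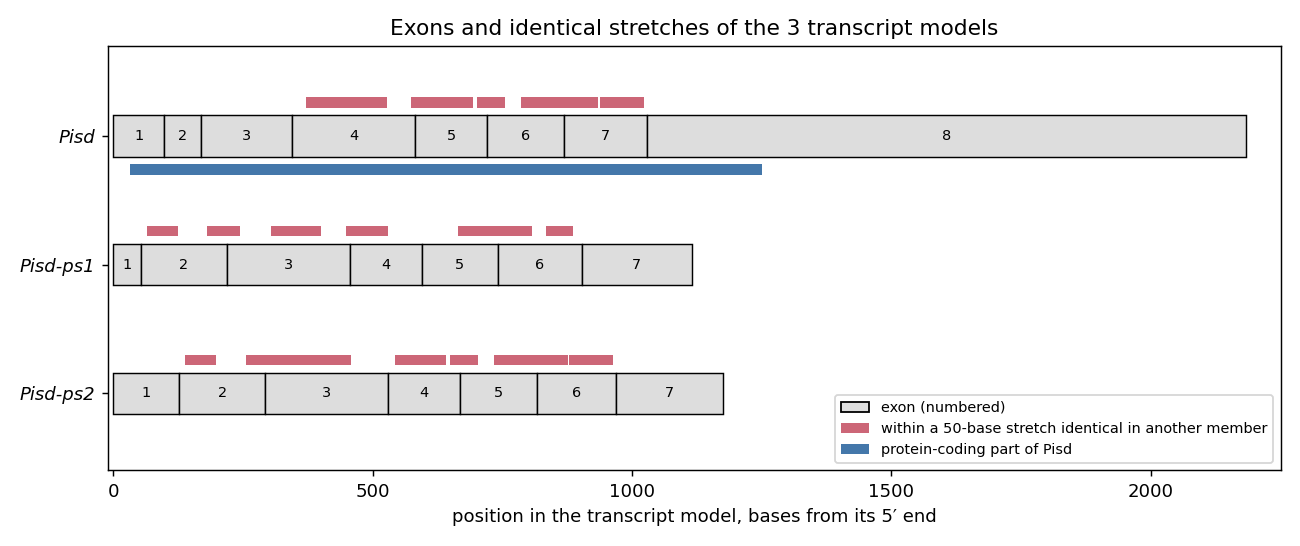
Transcript models of *Pisd*, *Pisd-ps1* and *Pisd-ps2*, with position in bases from the 5′ end on the horizontal axis, exons as numbered boxes, bases in 50-base stretches identical in another member in red and the coding part of *Pisd* in blue. The red bars of *Pisd* lie over exons 4 to 7, and its 1154-base exon 8 has none.

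Expression is given in RPKM, a read number scaled to the length of the transcript and to the size of the library. In *Pisd*, the enzyme gene, the young controls had levels of 18.7, 18.7 and 21 RPKM, the aged controls 30.5, 31.8 and 28.7, and the aged-repopulated mice 29.0, 26.6 and 28.4 (replicates 1 to 3 of each group). All aged libraries of both kinds lay above all young ones, and the 2 aged groups overlapped. In *Pisd-ps1* the young controls had 33, 35.9 and 48.9 RPKM, the aged controls 113, 121 and 87.0, and the aged-repopulated mice 99.8, 85.7 and 94.4. The young libraries again lay below all others, and aged control replicate 3 fell among the repopulated libraries. In *Pisd-ps2* the values were 7.81, 8.55 and 10.6 RPKM for the young controls, 23.2, 24.5 and 17.6 for the aged controls and 20.3, 18.6 and 19.3 for the aged-repopulated mice. Here aged control replicate 3 lay below all 3 repopulated libraries, and the other 2 aged controls lay above them.

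**Figure D2:**
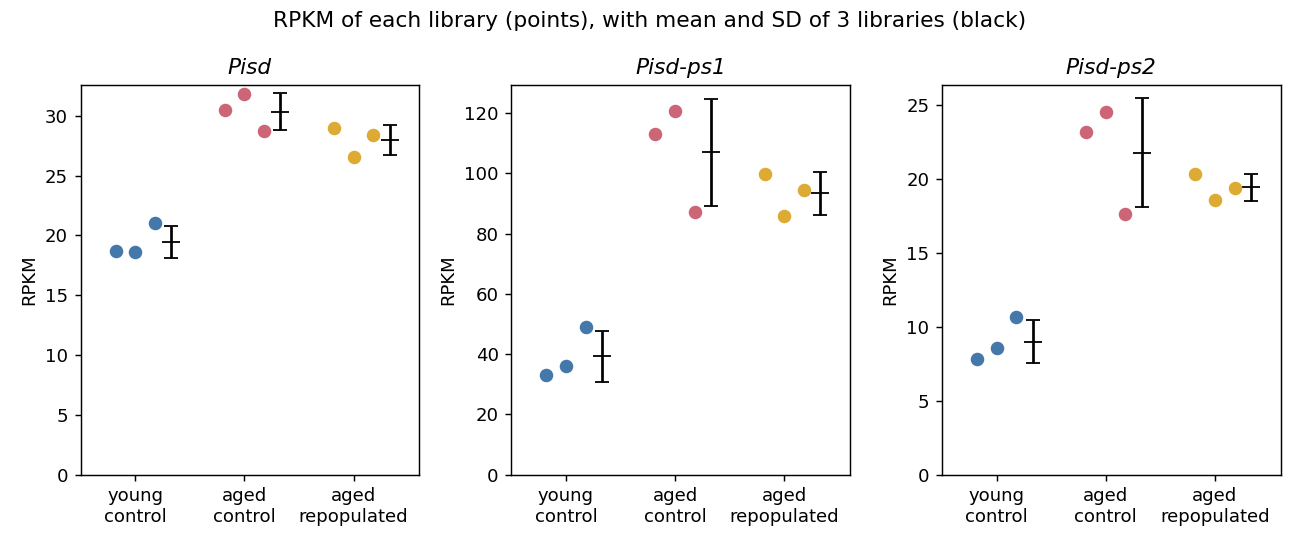
RPKM of *Pisd*, *Pisd-ps1* and *Pisd-ps2* on the vertical axis, with 1 coloured point per library in 3 groups and the mean ± SD of 3 libraries in black. In each panel the 3 young points lie below the 6 aged points, and the aged control and aged-repopulated points overlap.

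*Pisd-ps1* was the highest of the 3 in every library. Over the 9 libraries its mean was 79.8 RPKM, the 49th highest of the 689 genes, whereas *Pisd* averaged 25.9 (rank 248) and *Pisd-ps2* 16.7 (rank 412). The order *Pisd-ps1*, *Pisd*, *Pisd-ps2* held in every group. The means were 39.3 ± 8.47, 19.5 ± 1.34 and 9.00 ± 1.47 RPKM in young controls (SD, n = 3), then for the aged controls 107 ± 17.7, 30.4 ± 1.55 and 21.8 ± 3.67, and for the aged-repopulated mice 93.3 ± 7.13, 28.0 ± 1.28 and 19.4 ± 0.893. No 2 members overlapped within a group. A level of a pseudogene says only how many reads were assigned to it.

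Between young and aged controls, the mean level of *Pisd* was 1.56 times as high, that of *Pisd-ps1* 2.72 times and that of *Pisd-ps2* 2.42 times. As differences of log2(RPKM + 1) these were 0.62 with a standard error of 0.056, 1.43 with 0.15 and 1.18 with 0.12. The median difference over all 689 genes was 0.096 on the same scale, and the members stood 0.52, 1.33 and 1.09 above it. *Pisd-ps1* and *Pisd-ps2* had the largest and the second largest of all 689 differences, and *Pisd* the 16th. In 3 of 3 members every aged control library was above every young one, a pattern that 50.7% of the table's genes showed in that direction. Since this contrast chose the members, nothing is read from that count. Summed over the family, the mean level was 67.7 ± 11.2 RPKM in young controls and 159 ± 22.9 in aged controls, and *Pisd-ps1* accounted for 74.1% of the gap of 91.4 RPKM. *Pisd* accounted for 11.9% and *Pisd-ps2* for 14.0%.

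Between aged-repopulated and aged control brains no member's difference passed the test. The 3 differences, aged repopulated minus aged control, were negative on the log2 scale. For *Pisd* the difference was -0.11 (95% interval -0.24 to 0.013), with an adjusted p = 0.154 by limma over all 689 genes. For *Pisd-ps1* it was -0.18 (-0.52 to 0.15; limma adjusted p = 0.348) and for *Pisd-ps2* -0.15 (-0.42 to 0.13; limma adjusted p = 0.368). Thus 0 of 3 members were called, where 8.71% of the table was, and 0 of 3 had groups without overlap, where 37.4% of the table did. At an unadjusted p under 0.05, 0 of 3 passed as well. Ordered from the lowest of the 689 differences, *Pisd-ps1* was the 45th, *Pisd-ps2* the 83rd and *Pisd* the 158th, and the median of the table was -0.047. Without aged control replicate 3 the differences were -0.32 for *Pisd-ps1* and -0.28 for *Pisd-ps2*, and without aged control replicate 2 they were -0.090 and -0.057, none of them called. The interval of *Pisd-ps1* reaches down to -0.52, so that equal levels are not shown.

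Against young controls, the aged-repopulated brains had higher levels of all 3 genes. The mean level was 1.44 times as high for *Pisd*, 2.38 times for *Pisd-ps1* and 2.16 times for *Pisd-ps2*. The log2 differences were 0.50 (95% interval 0.38 to 0.63), 1.24 (0.91 to 1.58) and 1.04 (0.76 to 1.32), each with a limma adjusted p = 0.00252. All 3 members were called higher, where 4.21% of the table was called higher and 4.93% in either direction. In 3 of 3 every repopulated library lay above every young one, as in 31.5% of the table. This contrast uses the same 3 young libraries as the one that chose the members. The table also holds only genes that the authors had already selected with a model of these libraries. The p-values are therefore not independent evidence of an age difference, and nothing is read from the counts of members either.

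**Figure D3:**
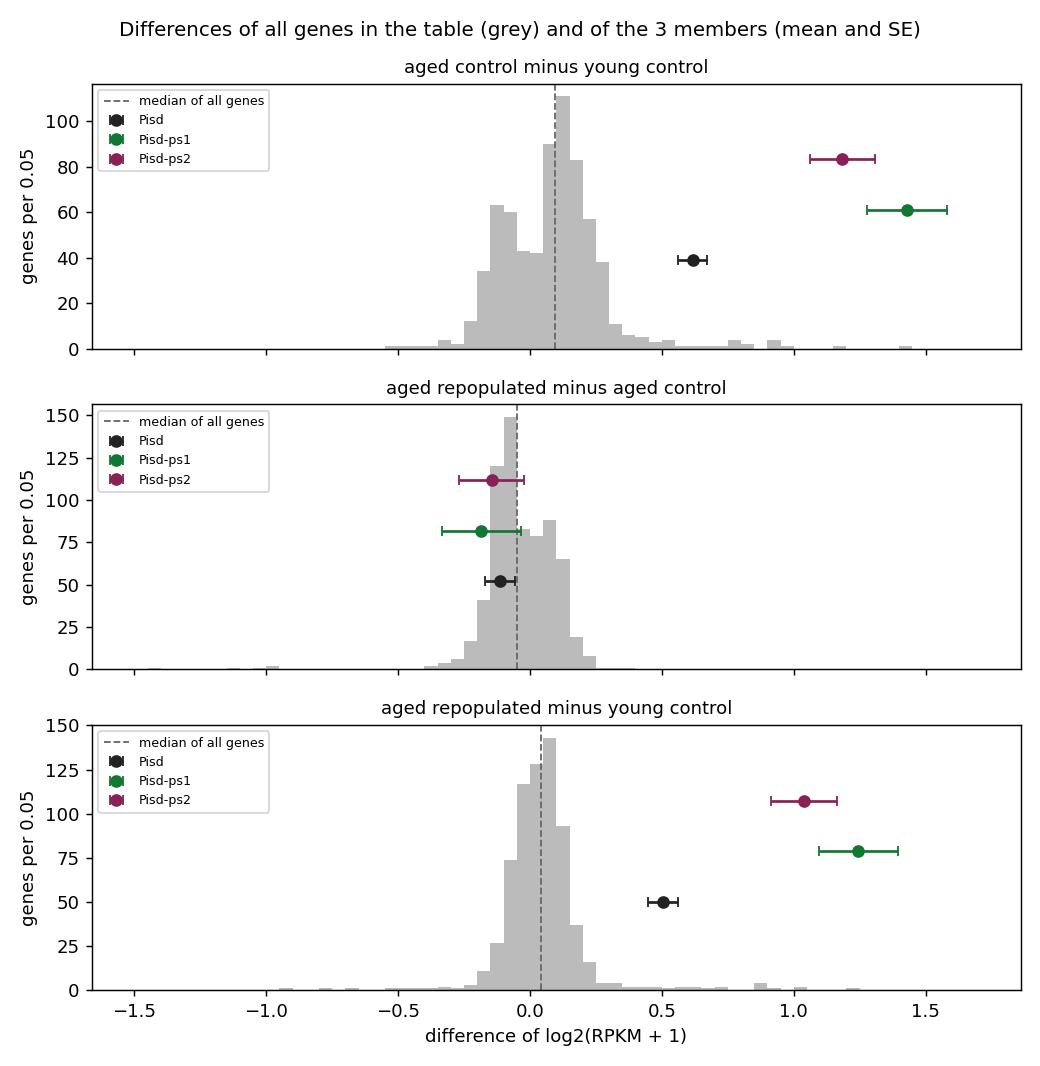
Histograms of the differences of log2(RPKM + 1) of all 689 genes (grey; horizontal axis, difference; vertical axis, genes per bin of 0.05) in the 3 comparisons, with the 3 members as points ± SE and the median of all genes as a dashed line. The members stand far to the right in both comparisons with young controls (*Pisd-ps1* at 1.43 and 1.24) and lie below the median of -0.047 in aged repopulated minus aged control.

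The 3 genes had nearly the same order of libraries within groups. In aged controls replicate 3 was lowest and replicate 2 highest for each of the 3 genes, and in aged-repopulated mice replicate 2 was lowest and replicate 1 highest. Among young controls replicate 3 was highest for all 3, while replicates 1 and 2 changed places in *Pisd*, where they differed by less than 0.1 RPKM in 18.7. Over the 9 libraries the level of *Pisd-ps2* lay along a straight line on that of *Pisd-ps1*, with a slope of 0.190, an intercept of 1.55 RPKM and a residual SD of 0.360 RPKM. For *Pisd* on *Pisd-ps1* the slope was 0.155, the intercept 13.6 RPKM and the residual SD 0.728 RPKM. The line of *Pisd* did not pass near 0, and the largest distance from its line was 1.68 RPKM, in aged control replicate 3. After each group's mean was taken off, the slope was 0.192 for *Pisd-ps2* and 0.108 for *Pisd*. These lines describe 9 libraries whose RPKM were scaled by shared library totals, and the genes share sequence.

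**Figure D4:**
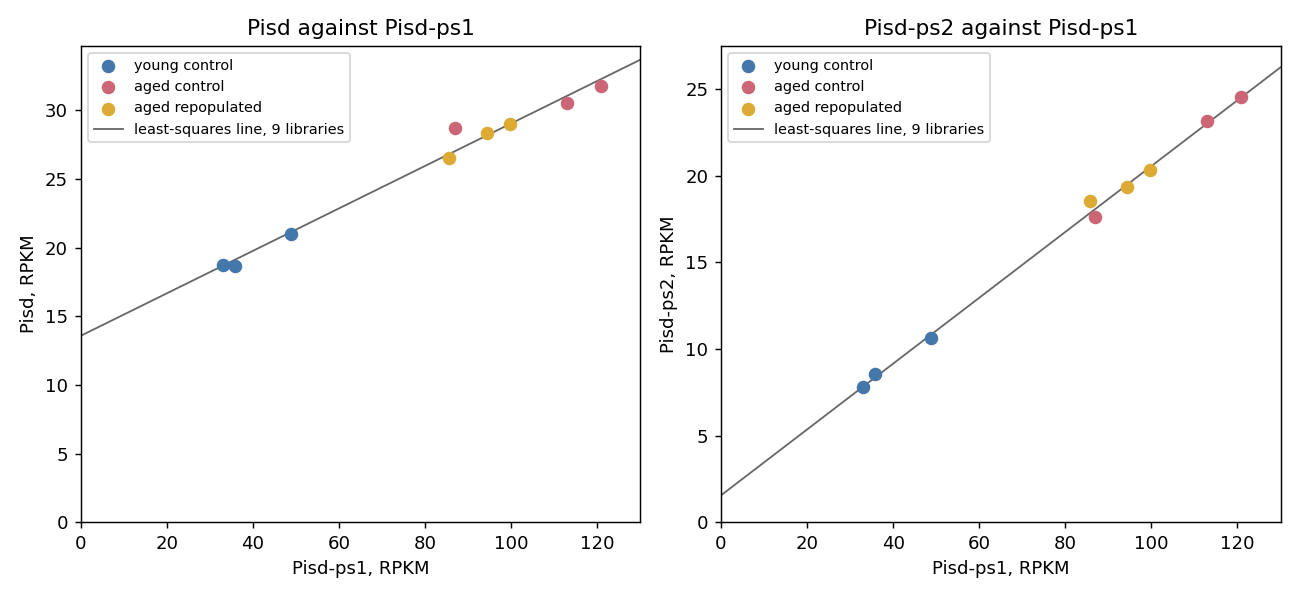
RPKM of *Pisd* (left) and *Pisd-ps2* (right) on the vertical axes against RPKM of *Pisd-ps1* on the horizontal axes, with 1 point per library coloured by group and the least-squares line over 9 libraries. The residual SDs are 0.728 and 0.360 RPKM, and the line of *Pisd* meets the vertical axis at 13.6 RPKM, that of *Pisd-ps2* at 1.55.

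The proportions of the family accordingly differed between young and aged brains. *Pisd-ps1* was 1.76 to 2.33 times the level of *Pisd* in young controls, 3.03 to 3.80 times in the aged controls and 3.23 to 3.44 times in aged-repopulated mice. *Pisd* made up 26.1% to 31.4% of the family's summed RPKM in young controls, against 18% to 21.5% in the aged control and 19.5% to 20.3% in the aged-repopulated libraries. *Pisd-ps2* stayed between 13.1% and 14.2% in all 9 libraries. The ratio of *Pisd-ps1* to *Pisd-ps2* was 4.2 to 4.6 in young controls, 4.87 to 4.94 in the aged control and 4.62 to 4.91 in the aged-repopulated libraries, so that the young libraries lay below the others here too.

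The likeness of other genes was measured as Pearson's r of log2(RPKM + 1) over the 9 libraries. The genes most like *Pisd* were *Pisd-ps1* (r = 0.994), *Pisd-ps2* (0.990), *Sat1* (0.959), *Rpl35a* (0.944) and *Cnot2* (0.941). *Sat1* encodes the enzyme that acetylates spermidine and spermine, *Rpl35a* a protein of the large ribosomal subunit and *Cnot2* a subunit of the complex that shortens poly(A) tails. Most like *Pisd-ps1* were *Pisd-ps2* (0.998), *Pisd* (0.994), *Sat1* (0.945), *Fam133b* (0.933) and *B2m* (0.925), the light chain of MHC class I. Of the other 686 genes, 25 reached an r of 0.9 with *Pisd*, 18 with *Pisd-ps1* and 14 with *Pisd-ps2*, and the median r was 0.501, 0.473 and 0.470. With group means taken off, r with *Pisd* was 0.32 for *Sat1*, 0.34 for *Rpl35a* and 0.41 for *Cnot2*, and r with *Pisd-ps1* was 0.22 for *Sat1*, 0.61 for *Fam133b* and 0.53 for *B2m*. For the members it was 0.95 for *Pisd-ps1* with *Pisd*, 0.89 for *Pisd-ps2* with *Pisd* and 0.98 for *Pisd-ps2* with *Pisd-ps1*. The step between groups differed in size too. For *Sat1* the young controls averaged 18.3 ± 0.472 RPKM, the aged controls 22 ± 0.596 and the aged-repopulated mice 21.6 ± 0.473 (SD, n = 3). For *B2m* the means were 69.4 ± 4.42, 120 ± 17.9 and 115 ± 25.

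Marker genes of microglia, the cells the treatment replaced, were looked at beside these values, and the markers named here were chosen after their values were seen. Of 4 such markers on the list, *Csf1r* and *C1qa* were in the table. *Csf1r*, the receptor that PLX5622 inhibits, ranged from 14.5 to 15.7 RPKM among young controls, 15.3 to 17.0 among aged controls and 15.7 to 18.9 among aged-repopulated mice. Neither contrast with young controls passed the test (log2 differences 0.085 and 0.15; limma adjusted p = 0.270 and 0.179). *C1qa*, a chain of complement C1q, ranged from 17.9 to 19.2 RPKM among young controls, 31.0 to 39.1 among aged controls and 27.8 to 48.1 among aged-repopulated mice. It rose by 0.90 on the log2 scale with age (limma adjusted p = 0.00706), where 62.8% of the table was called. It was 0.87 higher in aged-repopulated mice than in young controls (limma adjusted p = 0.0181), where 4.93% of the table was called. Between the aged groups its difference was -0.030 and did not pass (limma adjusted p = 0.893). The part of microglial RNA in the levels of the *Pisd* family was not tested. Of all 18 brain markers listed, 5 were in the table. The other 3 of these 5 mark other cells and were called with age, as was 62.8% of the table, whose median age difference was 0.096. *Rbfox3*, a marker of neurons, was higher by 0.16 (limma adjusted p = 0.0124) and *Gad1*, of inhibitory neurons, by 0.17 (limma adjusted p = 0.0208), while *Opalin*, of oligodendrocytes, fell by 0.53 (limma adjusted p = 0.0133). In aged repopulated minus aged control, where 8.71% of the table was called, *Rbfox3* was called lower, with a difference of -0.17 (limma adjusted p = 0.0452). *Gad1* (-0.096; 0.186) and *Opalin* (0.37; 0.0932) did not pass. Their part in the levels of the family was not tested either. Of 10 markers of other tissues and blood, 0 were in the table, as far as 689 selected genes can tell.

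Other genes of phosphatidylethanolamine and phosphatidylserine metabolism were taken from a list. Of its 54 genes for the synthesis, transport and turnover of these lipids and for the mitochondrial membrane, 4 were present beside *Pisd*. With age, 3 of the 4 passed the test, 1 upward and 2 downward. Of the table's 689 genes 62.8% were called, 319 upward and 114 downward. *Chka*, a kinase of choline and ethanolamine, rose from 19.4 ± 0.515 RPKM in young controls to 23.4 ± 1.96 in aged controls (log2 difference 0.25, SE 0.057; limma adjusted p = 0.00962). *Opa1*, a GTPase that fuses inner mitochondrial membranes and shapes cristae, fell from 31.8 ± 0.707 to 29.4 ± 0.306 (log2 difference -0.11, SE 0.030; limma adjusted p = 0.0151). *Gpcpd1*, which splits glycerophosphocholine, fell from 23.0 ± 0.295 to 17.4 ± 4.77 (log2 difference -0.41, SE 0.14; limma adjusted p = 0.0299), with aged control libraries as far apart as 22.6, 16.6 and 13.1 RPKM. *Atp11a*, a flippase that moves phosphatidylserine and phosphatidylethanolamine to the inner leaflet, had 13.4 ± 0.561 and 13.5 ± 0.760 RPKM, a difference that did not pass (limma adjusted p = 0.934). The median age difference of the 4 genes was -0.052, against 0.096 over the table.

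By limma, 0 of these 4 genes were called in aged repopulated minus aged control and 0 in aged repopulated minus young control, although 2 in each had an unadjusted p under 0.05. Over all genes of the table, 8.71% and 4.93% were called in these comparisons, so a count of 0 of 4 says little about the pathway. *Chka* had 21 ± 0.926 RPKM in aged-repopulated mice, between its levels in young and aged controls (log2 difference from aged control -0.14; limma adjusted p = 0.105). *Gpcpd1* had 20.4 ± 0.525 (difference 0.25; limma adjusted p = 0.198), *Opa1* 29.8 ± 0.206 (0.015; 0.694) and *Atp11a* 14.7 ± 0.300 (0.12; 0.0932). In *Atp11a* all 3 repopulated libraries lay above all aged controls. In that comparison 37.4% of the table had no overlap, in either direction. Without aged control replicate 1, 3 of the 4 genes (*Chka*, *Gpcpd1* and *Atp11a*) were called in aged repopulated minus aged control, and 20.5% of the table was called in that fit. With any other library left out, 0 of the 4 were called in this comparison. The share of the table called then fell from 8.71% to between 0.29% and 3.63%, so these calls depend on single libraries. Without young control replicate 3, 1 of the 4 (*Chka*) was called with age, beside 39% of the table. The age call of *Gpcpd1* was also lost without young control replicate 1 or 2 and without aged control replicate 2 or 3.

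Genes beside the members on the chromosome were looked up within 1 Mb. None of the 22 protein-coding genes around *Pisd* was in the table. Around *Pisd-ps1*, 1 of 24 was, *Sec14l2*, which encodes a lipid-transfer protein and lies 966 kb away. It had 13.9 ± 0.0859 RPKM in young controls and 14.9 ± 0.487 in aged controls, while the repopulated libraries averaged 14.7 ± 0.0158. The age difference of 0.095 on the log2 scale was called (limma adjusted p = 0.0253), as was 62.8% of the table. It was no larger than the table's median age difference of 0.096. Around *Pisd-ps2*, 1 of 5 was, *Scaf8*, whose protein binds RNA polymerase II and which lies 30.8 kb away. *Scaf8* averaged 12.9 ± 0.457 RPKM in the young, 12.5 ± 0.258 in the aged control and 13.0 ± 0.118 in the repopulated libraries, and its age difference of -0.039 did not pass (limma adjusted p = 0.313).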

How the data were processed

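Base calling by the authors used CASAVA 1.8.2 and alignment to mm10 used ELAND, and genes above an RPKM threshold were kept. The authors deposited the RPKM of the 689 genes that passed a linear model with age and microglial state, and no read counts were used here. Other groups of the study are not analysed here. The deposited p-values and F and t scores of that model were not used. All 9 library columns were mapped by title (0 unmapped), and no library pair was identical. Depth is unknown: a search of RPKM for whole-read steps gave mean cosines of 0.23 to 0.269, where perfect steps give 1. The precision rests on 3 mice per group.

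log2(RPKM + 1), with a pseudocount of 1, was fitted over all 9 libraries with limma 3.58.1 in R 4.3.3, with Benjamini-Hochberg adjustment over 689 genes at 0.05. SDs are over 3 libraries. Since 1 is added, fold changes of low genes are understated. The code was tested on simulated data. Sequences and exons came from GENCODE M21 (686 of 689 symbols matched, 19 through an older symbol) and were aligned with MAFFT 7.526. Tables and plots used Python 3.11.15, pandas 2.3.3 and matplotlib 3.10.9.

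Genes named are the members, the listed pathway genes in the table, the 5 most like *Pisd* and *Pisd-ps1*, and table genes within 1 Mb. The tissue markers named were added. The members and lists were chosen with earlier results of these data known. The alternatives tried were other pseudocounts, scalings, filters, fits and thresholds, and each library left out.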

Additional observations from a re-analysis of the deposited data

How the results depend on the processing

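Over 53 values from the alternatives, the members stayed called higher in aged repopulated minus young control 53 times (limma adjusted p up to 0.0484). In aged repopulated minus aged control they were called 0 times, and 53 values were negative. These values are not independent of each other. The filter on the mean level, the fit of 2 groups and leaving out a library of the third group leave the difference itself unchanged. The contrast with young controls also uses the young libraries of the contrast that chose the members. A minimum mean of 20 RPKM (341 genes) left out *Pisd-ps2*. With a pseudocount of 1, the family sum had an age difference of 1.22 on the log2 scale. Weighted by transcript length, it had 1.07 with age and 0.91 for aged repopulated minus young. With a pseudocount of 10, the age difference was 0.45 for *Pisd* and 0.74 for *Pisd-ps2*. The length-weighted family sum then had 0.83 with age and 0.70 for aged repopulated minus young. The age difference of *Pisd* was 0.51 with median centring, which moved the median of all genes from 0.096 to -0.012, and 0.52 with quantile normalization. A correction for transcript length gave age differences of 0.49 for *Pisd*, 1.19 for *Pisd-ps1*, 0.97 for *Pisd-ps2*, 1.01 for the family sum and 0.88 for its length-weighted form. Of the 4 pathway genes, length correction called 1 with age, median centring 1 in each repopulated contrast, and quantile normalization and the fit of 2 groups 1 each against young; the causes were not tested. With each library left out, they numbered 1 to 3 with age and 0 to 3 in aged repopulated minus aged control. Stretches of 36, 75 and 100 bases identical in another member made up 17.7%, 6.6% and 1.9% of *Pisd*, 25.9%, 4.4% and 0.0% of *Pisd-ps1* and 36%, 9.2% and 3.7% of *Pisd-ps2*. No paired analysis was possible because the labels give each library its own number and the replicate numbers used here, given in accession order, name different animals. Unknown depth limits the error of low levels.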
